A study of Mus musculus with 30 samples.

Results

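The genes described here are 37 transcripts of the ATF4 arm of the integrated stress response, named as a list: the factor Atf4, its partners and targets, and parts of the eIF2 machinery upstream of it. The list was written by name with earlier results of these data known, no comparison or threshold is recorded as having chosen a member, and so its counts are descriptions. Of the 37 genes, 36 were listed in the heart table of 20764 genes (Fgf21 was not) and all 37 in the HL-1 table of 54532 genes. In hearts, 33 members passed the filter on low counts, and Cbs, Slc7a11 and Slc7a3 did not. In HL-1 cells 36 passed, and Cbs did not.

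In the integrated stress response, kinases that sense amino acid shortage, unfolded protein, double-stranded RNA or lack of heme phosphorylate the translation factor eIF2. General protein synthesis then slows while the Atf4 message is translated better, and ATF4 protein switches on genes for amino acid import, amino acid synthesis, mitochondrial folate metabolism and feedback on the pathway itself. In heart muscle the pathway is known for its activation by mitochondrial dysfunction, when Gdf15 and Fgf21 are released as hormones.

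Hearts and a cell line were sequenced. Hearts came from female mice labelled C57BL6, by the study's methods a mixed background of the J and N substrains, and of 3 kinds: young mice of 2 months, 12-month-old mice on plain drinking water (old H2O), and 12-month-old mice that had received nicotinamide riboside (NR, a precursor of NAD+) at 3 g/L in the water since the age of 2 months (old NR). Each kind was sampled at ZT10, in the light phase, and at ZT22, in the dark phase, with 3 mice and 3 libraries in each of the 6 groups. Cells of HL-1, a single mouse line derived from an atrial tumour, were untreated, or received FK866 (an inhibitor of NAMPT, the salvage enzyme of NAD+ synthesis), FK866 with NR, or FK866 with NR and Ex527 (an inhibitor of the deacetylase SIRT1). There were 3 wells, cultured separately, in each of the 4 groups. Every NR and Ex527 culture therefore also carried FK866, so neither agent was measured alone. Library totals lay between 3922137 and 7562215 counts in hearts and between 21337922 and 35000109 in HL-1 cells.

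The labelled cell type did not hold up in every respect. In the 12 HL-1 libraries Actc1, the cardiac actin, had no counts, and the highest values of Myh6, Tnni3 and Nkx2-5 in any library were 0.278, 0.311 and 0.12 CPM (normalized counts per 1000000 counts). Tnnt2 reached at most 1.69 and Ryr2 at most 3.57 CPM, and the atrial hormone Nppa at most 0.0859 CPM. Of 7 cardiomyocyte markers, only the transcription factor Gata4 was plainly expressed (group means 83.4 to 111 CPM). The fibroblast collagen gene Col3a1 stood at group means of 1950 to 3100 CPM. The summed level of 4 fibroblast markers (Col1a1, Col3a1, Dcn, Pdgfra) was 3750 to 4110 CPM in untreated cells, 2530 to 2670 with FK866, 3740 to 3790 with FK866 and NR, and 3290 to 3410 with Ex527 added. The 7 cardiomyocyte markers, mostly Gata4, summed to 107 to 117, 82.6 to 87.0, 98.0 to 107 and 90.6 to 97.1 CPM in the same order. These sums moved with the treatments, and their part in the results on the members was not tested. In hearts all 6 groups expressed the cardiomyocyte markers, with summed levels of 4780 to 7140 CPM.

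ATF4 acts with C/EBP proteins at a composite element, here searched as TGATGNAA on either strand of RefSeq promoter windows that run from 250 bases before to 50 bases after each transcription start (GRCm38.p6). A window was held for 33 of the 37 members, and 9 of them (27.3%) had at least 1 match. A match was present in 9 of 30 genes with a window (30.0%) in a wider list of 42 further genes of the pathway, and in 4.51% of all 27025 genes. The matched stretches of the 9 members with a match are shown, 30 bases each, read on the strand that carries the motif, with the motif in capitals:

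Chac1 (chr2:119351038-119351067, minus strand): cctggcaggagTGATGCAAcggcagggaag

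Trib3 (chr2:152344028-152344057, plus strand): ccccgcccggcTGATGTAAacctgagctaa

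Slc7a11 (chr3:50443661-50443690, minus strand): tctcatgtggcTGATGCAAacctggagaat

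Slc7a11 (chr3:50443642-50443671, plus strand): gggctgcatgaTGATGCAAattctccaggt

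Asns (chr6:7693214-7693243, minus strand): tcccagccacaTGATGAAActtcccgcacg

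Fgf21 (chr7:45615611-45615640, plus strand): gcctggacggaTGATGCAAtgggggggtct

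Nupr1 (chr7:126625562-126625591, plus strand): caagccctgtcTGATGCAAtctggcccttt

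Pycr1 (chr11:120643833-120643862, minus strand): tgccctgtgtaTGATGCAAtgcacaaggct

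Jdp2 (chr12:85599372-85599401, plus strand): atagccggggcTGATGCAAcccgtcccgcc

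Vldlr (chr19:27216809-27216838, minus strand): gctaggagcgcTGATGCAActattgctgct

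Slc7a11 was the one member with 2 matches, on opposite strands and with overlapping flanks, and its 250 bases before the start (chr3:50443614-50443863, minus strand) read, with both matches in capitals:

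Slc7a11: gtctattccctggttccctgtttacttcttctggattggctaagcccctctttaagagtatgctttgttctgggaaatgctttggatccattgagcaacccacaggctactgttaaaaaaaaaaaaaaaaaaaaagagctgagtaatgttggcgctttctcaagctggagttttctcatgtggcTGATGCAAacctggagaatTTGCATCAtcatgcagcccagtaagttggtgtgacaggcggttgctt

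In these windows Atf5, Stc2, Psph, Phgdh and Sesn2 held no match to these letters. A match describes the sequence and does not show that the factor was bound.

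The first question in HL-1 cells was what FK866 did to these genes. FK866 raised Atf5, Trib3 and Slc7a11 and lowered Pycr1, while Atf4 itself moved by less than the fold required. In a fit of all 12 libraries with edgeR's quasi-likelihood test, calls required a Benjamini-Hochberg adjusted p under 0.01 over the 14760 genes tested and a change of more than 1.5-fold. By this rule 4 of 36 members (11.1%) were called, 3 higher and 1 lower, beside 4.59% of all genes tested (2.09% higher and 2.5% lower). With adjusted p alone 14 members passed, 13 higher and 1 lower, beside 13.9% of all genes (6.19% higher and 7.68% lower). The median log2 fold change was 0.23 over the members and 0.016 over all genes.

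Atf4 (chr15:80255184-80257541 of GRCm38, plus strand) stood at 322, 346 and 366 CPM in untreated cells and at 414, 435 and 369 CPM with FK866. The groups did not overlap, and the log2 fold change was 0.24 (SE 0.068, edgeR adjusted p = 0.0189), short of the threshold. Atf5 (chr7:44812256-44816658, minus strand), a related factor that is translated in the same way as Atf4, stood at 77.9, 76.9 and 86.9 CPM in untreated cells and at 141, 165 and 123 CPM with FK866. Its log2 fold change of 0.83 (SE 0.088, edgeR adjusted p = 1.07e-05) was the highest among the members. Trib3, a pseudokinase that holds ATF4 back, rose from 31.8, 33.5 and 36.9 to 53.9, 62.5 and 51.4 CPM (log2 fold change 0.71, SE 0.093, edgeR adjusted p = 6.49e-05). For these 2 genes every FK866 library lay above every untreated one. Atf5 shares exonic bases with genes on the other strand, and it is not stated whether the HL-1 counting used strand. One of them, Nup62, differed by a log2 fold change of 0.00 between these groups (edgeR adjusted p = 0.995). In the comparisons described below, Nup62 differed in the same directions as Atf5. Its log2 fold change was -0.20 with NR added to FK866 (edgeR adjusted p = 0.0142). With Ex527 added to FK866 and NR it was 0.22 (edgeR adjusted p = 0.0324). How far reads of the pair mix in HL-1 cells was not tested.

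Slc7a11, the cystine importer, was at 20.2, 14.8 and 14.4 CPM in untreated cells and at 27.8, 23.4 and 34.8 CPM with FK866 (log2 fold change 0.80, SE 0.14, edgeR adjusted p = 0.00077). In a fit of only these 2 groups its adjusted p was 0.0113, over the threshold. Pycr1, which makes the last step of mitochondrial proline synthesis, went the other way, from 17.4, 21.1 and 22.9 to 13.7, 11.6 and 11.2 CPM (log2 fold change -0.75, SE 0.11, edgeR adjusted p = 0.000151). It was the only member that was called lower. Asns (asparagine synthetase), Mthfd2 (the mitochondrial folate dehydrogenase), Ppp1r15a (the phosphatase subunit that removes phosphate from eIF2) and Stc2 (the secreted stanniocalcin) passed on adjusted p but stayed under 1.5-fold, with log2 fold changes of 0.40, 0.32, 0.52 and 0.55. Leaving out FK866 replicate 3 took Ppp1r15a to 0.60, leaving out FK866 replicate 2 took Aldh1l2 from 0.50 to 0.60, and leaving out FK866 replicate 1 took Stc2 to 0.60, each over the fold required. Without untreated replicate 1, Aldh1l2 was at 0.65 and Cebpb at -0.63, both called.

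The second comparison asked what NR changed in cells that also received FK866. Of 36 members, 8 (22.2%) were called, all lower with NR (Atf5, Trib3, Asns, Phgdh, Cth, Ppp1r15a, Chac1 and Stc2), beside 4.81% of all genes (2.02% lower). On adjusted p alone 20 passed, 19 lower and 1 higher, beside 7.97% and 7.33% of all genes. The median log2 fold change was -0.46. The groups did not overlap for 27 members that were lower and 2 that were higher, beside 21.7% and 21.2% of all genes.

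Among the regulators, Atf4 was at 279, 291 and 303 CPM with FK866 and NR, below all 3 FK866 libraries (log2 fold change -0.48, SE 0.068, edgeR adjusted p = 0.000132, under 1.5-fold). Atf5 stood at 63.3, 66.1 and 65.9 CPM, a log2 fold change of -1.13 (SE 0.089, edgeR adjusted p = 8.92e-07) against FK866. Trib3 stood at 24.0, 30.6 and 26.95 CPM (log2 fold change -1.04, SE 0.094, edgeR adjusted p = 2.76e-06). Those of Atf5 and Trib3 were the largest called decreases in the set. Ddit3 (CHOP, the factor linked to cell death under stress), Jdp2 and Nupr1 (both regulators of transcription) passed on adjusted p alone, at -0.51, -0.45 and -0.57. Cebpb, at 0.02 (SE 0.14), and Cebpg, at -0.19, did not pass. Part of Ddit3, 6.13% of its exonic bases, is overlapped by a second identifier with the same name, which had no counts in any HL-1 library. On the other strand Ddit3 shares exonic bases with Mars, at a mean of 152 CPM. Mars differed by -0.36 with NR added (edgeR adjusted p = 0.000196) and by 0.38 with Ex527 added (edgeR adjusted p = 0.000764). How far reads of these genes mix was not tested.

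Of the 7 amino acid synthesis genes tested, 3 fell with NR, and Psat1 and Psph passed on adjusted p alone. Asns moved from 355, 355 and 348 CPM with FK866 to 208, 225 and 232 CPM (log2 fold change -0.67, SE 0.054, edgeR adjusted p = 1.04e-06). Phgdh, the first enzyme of serine synthesis, moved from 323, 341 and 301 to 202, 220 and 217 CPM (log2 fold change -0.60, SE 0.068, edgeR adjusted p = 2.09e-05), and Cth, which makes cysteine from cystathionine, from 17.7, 18.3 and 16.0 to 10.4, 10.1 and 12.8 CPM (log2 fold change -0.64, SE 0.10, edgeR adjusted p = 0.000341). Psph, the last step of serine synthesis, was at 102.1, 111 and 91.0 CPM with FK866 and at 69.2, 71.2 and 71.5 CPM with NR added, a log2 fold change of -0.52 that passed on adjusted p but not on fold. Psph shares exonic bases with Cct6a on the other strand, at a mean of 506 CPM. Cct6a differed by -0.21 with NR added (edgeR adjusted p = 0.0122) and by 0.03 with Ex527 added (edgeR adjusted p = 0.81). How far reads of this pair mix was not tested. Pycr1, lowered by FK866, stood at 16.7 CPM in each of the 3 NR libraries and passed on adjusted p in the opposite direction (log2 fold change 0.46, edgeR adjusted p = 0.00618). Aldh18a1, the enzyme that opens proline synthesis, differed by -0.08 (SE 0.054).

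Among the eIF2 machinery, the stress effectors and the secreted factors, 1 member each was called. Ppp1r15a went from 29.2, 33.3 and 26.5 to 18.8, 18.2 and 19.9 CPM (log2 fold change -0.64, SE 0.089, edgeR adjusted p = 0.000112). Chac1, which breaks down glutathione, went from 21.8, 19.8 and 19.4 to 12.2, 14.2 and 12.5 CPM (log2 fold change -0.65, SE 0.091, edgeR adjusted p = 0.000132). Stc2 went from 14.04, 16.9 and 14.7 to 8.39, 9.05 and 7.31 CPM (log2 fold change -0.89, SE 0.10, edgeR adjusted p = 2.48e-05). In each case the lowest FK866 library was above the highest one with NR.

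None of the 4 mitochondrial folate genes and none of the 7 amino acid transporters reached 1.5-fold with NR. All 11 had negative log2 fold changes, from -0.57 for Mthfd2 to -0.02 for Slc38a2, a neutral amino acid transporter. Slc7a11 stood at 20.6, 17.7 and 19.9 CPM (log2 fold change -0.56, SE 0.14, edgeR adjusted p = 0.00763). The translation factor subunits Eif2s1 and Eif2s2 and the kinase Eif2ak4 (GCN2) lay between -0.22 and 0.04, and none passed.

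The number of calls depended on single FK866 libraries. Without FK866 replicate 3 it was 13, with Ddit3, Nupr1, Psph, Mthfd2 and Fgf21 added at log2 fold changes of -0.59, -0.72, -0.61, -0.59 and -1.36. The share of all genes called in that fit is not given. Without FK866 replicate 2, Phgdh, Cth and Ppp1r15a stayed under 1.5-fold (-0.54, -0.58 and -0.54) and Slc7a11 passed it (-0.68). Without replicate 1 of FK866 and NR, Phgdh was at -0.56 and Nupr1 at -0.61, and without replicate 2 of that group Cth was at -0.56. Atf5, Trib3, Asns, Chac1 and Stc2 were called in all 6 of these fits.

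**Figure D1:**
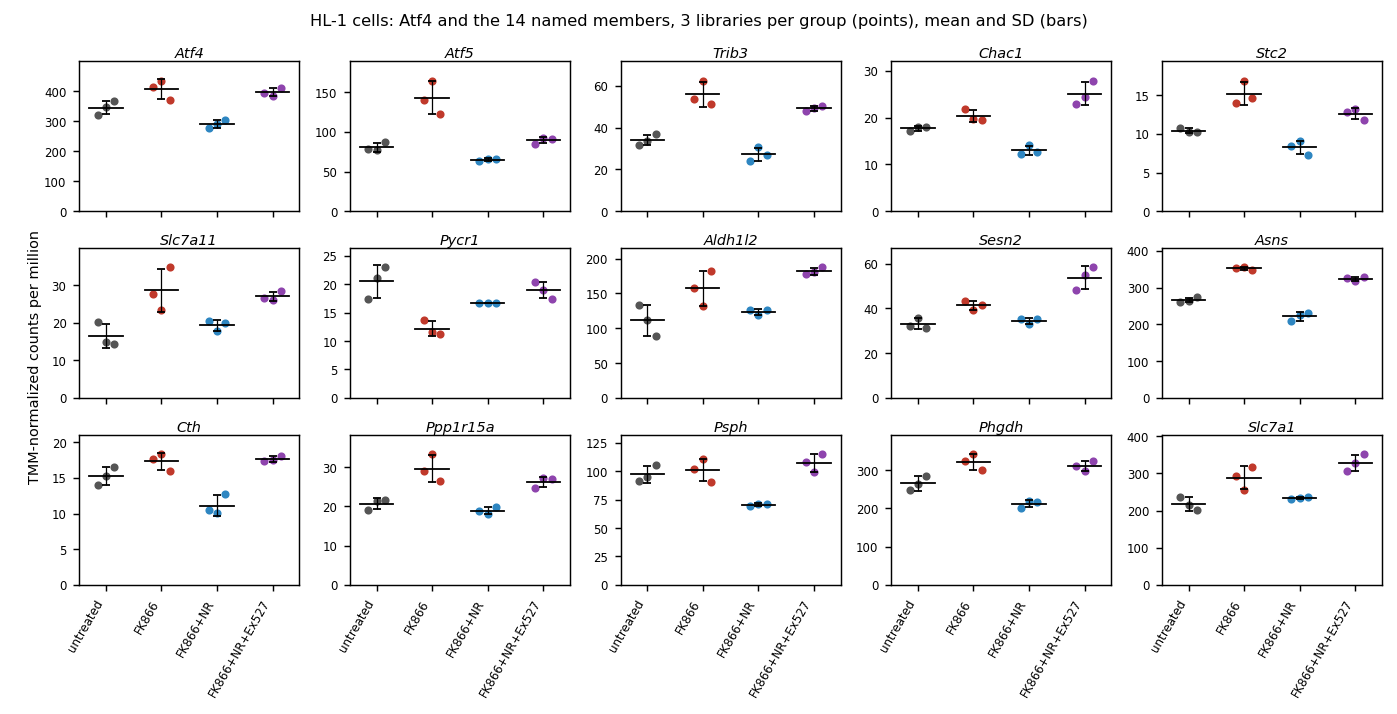
TMM-normalized CPM (vertical axes, each from 0) of Atf4 and the 14 named members in the 4 HL-1 groups; points are the 3 libraries of a group, horizontal lines the mean and whiskers the SD. Atf5 is highest with FK866 (123 to 165) and lowest with FK866 and NR (63.3 to 66.1), and Pycr1 is lowest with FK866 (11.2 to 13.7).

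Set against untreated cells, the cultures with FK866 and NR had no called member (0 of 36, beside 0.901% of all genes), 6 passed on adjusted p alone, all lower (Jdp2, Asns, Psat1, Psph, Phgdh and Chac1), beside 2.66% of all genes in either direction, and 23 had an unadjusted p under 0.05. The share of all genes at that unadjusted p is not given here. With DESeq2 the count of called members was also 0. The median log2 fold change was -0.24. Psph had the largest of the 6, at -0.47 (SE 0.080, edgeR adjusted p = 0.00828), and the levels of Atf4 did not overlap either (279 to 303 against 322 to 366 CPM, log2 fold change -0.25, edgeR adjusted p = 0.0218). Slc7a11 and Aldh1l2 were among the 10 members with positive values, at 0.24 and 0.16. Without untreated replicate 1, Cebpb was called, at -0.60. This comparison shares the untreated libraries with the first and the FK866 and NR libraries with the second.

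The third question was what adding the SIRT1 inhibitor Ex527 changed in cells that had FK866 and NR. SIRT1 activity itself was not measured in these libraries. Of 36 members, 6 (16.7%) were called, all higher with Ex527 (Chac1, Trib3, Sesn2, Cth, Psph and Stc2), beside 0.596% of all genes (0.21% higher), and 19 passed on adjusted p alone, all higher, beside 1.07%. Of the 36 members 35 had positive log2 fold changes, the median was 0.46, and for 30 members each Ex527 library lay above each library with FK866 and NR, beside 18.1% of all genes. The median and the signs over all genes are not given for this comparison. Over all genes tested, 88 were called.

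Chac1 rose most, from 12.2, 14.2 and 12.5 to 23.0, 24.5 and 27.9 CPM (log2 fold change 0.95, SE 0.090, edgeR adjusted p = 2.57e-05). Trib3 rose to 48.0, 49.4 and 50.5 CPM, just below the 3 libraries with FK866 alone (log2 fold change 0.86, SE 0.094, edgeR adjusted p = 0.00011). Sesn2, a leucine sensor that restrains the growth kinase mTORC1, went from 35.1, 33.03 and 35.1 to 48.2, 54.7 and 58.2 CPM (log2 fold change 0.64, SE 0.079, edgeR adjusted p = 0.000267). All 3 had higher values with Ex527 than in untreated cells, where the highest libraries had 18.03, 36.9 and 35.8 CPM.

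Cth rose to 17.3, 17.6 and 18.1 CPM (log2 fold change 0.67, SE 0.099, edgeR adjusted p = 0.00123) and Psph to 108, 99.2 and 115 CPM (log2 fold change 0.60, SE 0.080, edgeR adjusted p = 0.0005). Stc2 rose to 12.8, 13.2 and 11.9 CPM (log2 fold change 0.62, SE 0.10, edgeR adjusted p = 0.00239). Just under 1.5-fold stood Mthfd2 (0.58), Slc7a5, the leucine importer (0.57), Shmt2, the mitochondrial serine hydroxymethyltransferase (0.55), Phgdh (0.55) and Asns (0.54), each with an edgeR adjusted p of 0.000266 or lower. Atf4 stood at 395, 384 and 409 CPM (log2 fold change 0.45, SE 0.068, edgeR adjusted p = 0.00143) and Atf5 at 85.1, 92.5 and 91.3 CPM (0.46, edgeR adjusted p = 0.00639), both past the adjusted p but under 1.5-fold. The calls of Trib3 and Chac1 held whichever library was left out. Stc2 lost its call in 4 of 6 such fits (edgeR adjusted p of 0.0121 without replicate 1 and 0.0172 without replicate 3 of FK866 and NR, 0.0167 without replicate 1 and 0.0128 without replicate 2 of the Ex527 group). Cth lost its call without replicate 1 or 2 of FK866 and NR (edgeR adjusted p = 0.01 and 0.0114), and Psph and Sesn2 fell to 0.54 and 0.57 on the log2 scale without replicate 3 of the Ex527 group.

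Set against FK866 alone, the Ex527 cultures differed in 2 of 36 members (5.56%, beside 1.27% of all genes, 0.413% higher and 0.86% lower), with a median log2 fold change of 0.02. Atf5 was lower (log2 fold change -0.67, SE 0.088, edgeR adjusted p = 0.000219) and Pycr1 higher (0.64, SE 0.11, edgeR adjusted p = 0.00156). Atf5 had a log2 fold change of -0.56 without FK866 replicate 2, and Pycr1 one of 0.57 without FK866 replicate 3 and of 0.58 without replicate 1 of the Ex527 group, all under 1.5-fold. Set against untreated cells, 4 members (11.1%, beside 1.42%) were called, all higher (0.61% of all genes were). Sesn2 differed most (log2 fold change 0.70, SE 0.079, edgeR adjusted p = 0.000126). Slc7a1, the arginine and lysine importer, was at 236, 215 and 201 CPM in untreated cells and at 307, 327 and 352 CPM in the Ex527 group (0.60, SE 0.080, edgeR adjusted p = 0.000445). Aldh1l2, a mitochondrial folate enzyme that yields NADPH, was at 134, 111 and 88.6 against 178, 181 and 187 CPM (0.71, SE 0.12, edgeR adjusted p = 0.00254), and Slc7a11 reached 26.5, 26.2 and 28.4 CPM (0.72, SE 0.14, edgeR adjusted p = 0.00499). Aldh1l2 and Slc7a11 each lost the call in 5 of 6 fits that left out 1 library, all but the one without untreated replicate 1, with edgeR adjusted p up to 0.0134 and 0.0273, and Trib3 was called without untreated replicate 3 (0.59). Slc7a1 fell under 1.5-fold (0.53 to 0.58) without untreated replicate 2 or 3 or replicate 3 of the Ex527 group.

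Per length, by the authors' FPKM values, the most abundant members in untreated cells were Psat1 at 154 ± 7.2 FPKM (SD, n = 3), of serine synthesis, and Atf4, which ranged from 135 to 154 over the 3 libraries, against 149 to 162 for Psat1. Phgdh (106 ± 8.1) and Shmt2 (103 ± 4.3) could not be told apart by their spread. The lowest were the transporters Slc7a3 (0.195 ± 0.069) and Slc7a11 (1.17 ± 0.23) and the hormones Gdf15 (0.483 ± 0.048) and Fgf21 (1.21 ± 0.11), and Cbs was listed at 0. Slc7a11 and Fgf21 could not be told apart by their spread. Gdf15 and Fgf21 were called in no HL-1 comparison. Gdf15 had 0.839 to 1.00 CPM in untreated and 1.24 to 1.97 CPM in FK866 cultures.

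**Figure D2:**
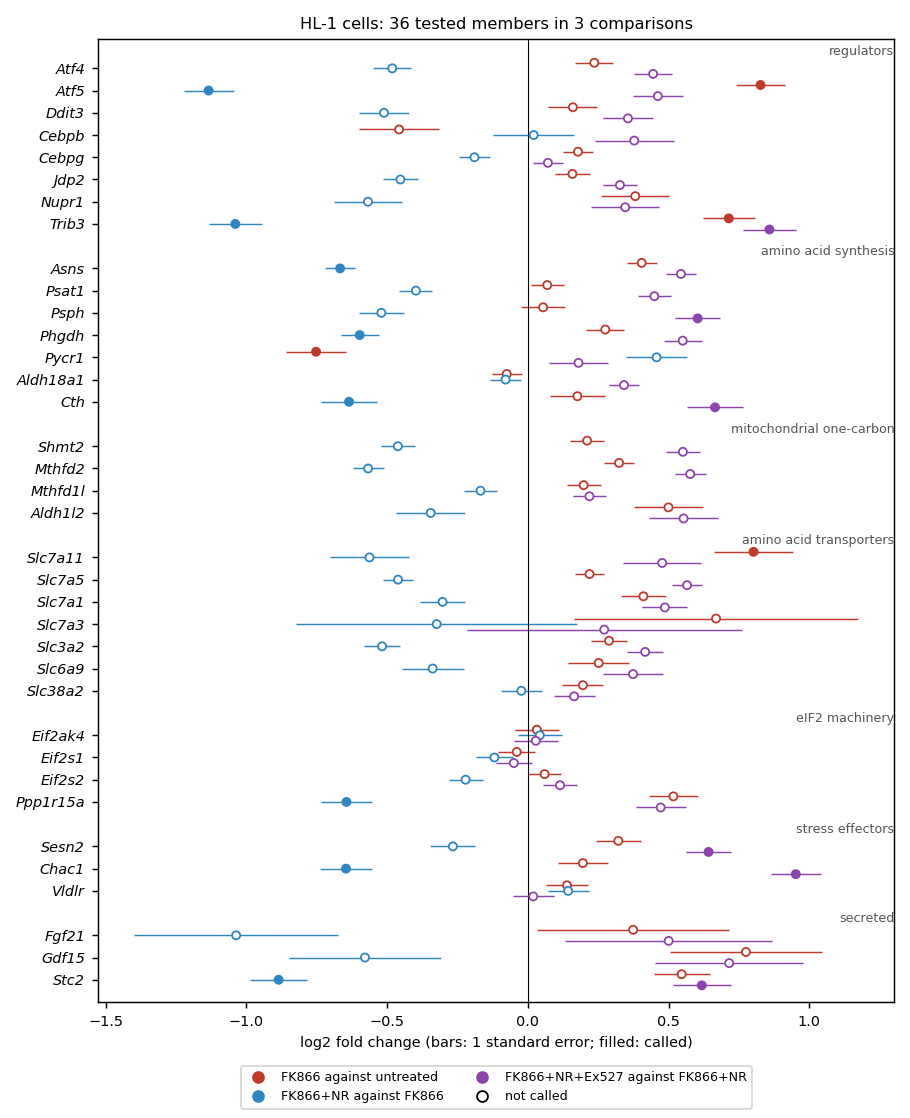
Log2 fold changes (horizontal axis) of the 36 tested members in 3 HL-1 comparisons, grouped by role, with bars of 1 standard error; filled points are called at an adjusted p under 0.01 and over 1.5-fold. The blue points (NR added to FK866) lie below 0 for 32 members and the purple points (Ex527 added) above 0 for 35.

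Of the 42 further pathway genes, all of which were tested, 3 (7.14%) were called with FK866, beside 4.59% of all genes. Atf3, a stress-induced factor, rose from a mean of 1.64 to 5.33 CPM (log2 fold change 1.70, SE 0.25, edgeR adjusted p = 0.000169), Ass1, of arginine synthesis, rose (0.89, SE 0.22, edgeR adjusted p = 0.00714), and Ddit4, an mTORC1 inhibitor, fell from 74.9 to 32.3 CPM (-1.22, SE 0.099, edgeR adjusted p = 9.58e-07). With NR added, 1 gene was called higher and 5 lower (14.3% together, beside 4.81% of all genes), and 22 passed on adjusted p alone, 21 of them lower, beside 7.97% of all genes lower. These 21 held 10 of the 14 aminoacyl-tRNA synthetase and tRNA export genes, which had negative log2 fold changes throughout (median -0.31). With Ex527 added, all 14 had positive ones (median 0.31), 8 passed on adjusted p alone beside 1.07% of all genes, and the list as a whole had 1 called gene (2.38%, beside 0.596%), Slc1a4, a neutral amino acid transporter (0.64, SE 0.076, edgeR adjusted p = 0.000216). The kinases, eIF2B subunits and relay genes were less uniform, with a median of -0.23 for NR and 0.15 for Ex527.

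In hearts, expression was first compared between ZT10 and ZT22. A member was called at an edgeR adjusted p under 0.05 over 15443 genes tested, in a fit of all 18 hearts, and a positive log2 fold change means higher at ZT10. Bulk hearts do not tell apart fewer cells of a type from less RNA per cell. In young hearts 12 of 33 members (36.4%) were called, 4 higher and 8 lower at ZT10, beside 14.4% of all genes (6.8% higher and 7.57% lower). In old H2O hearts 4 were called (12.1%, beside 4.2%) and in old NR hearts 3 (9.09%, beside 5.37%), all higher at ZT10, as were 1.56% and 2.36% of all genes. The summed level of 4 endothelial markers was 1180 to 1250 CPM in young hearts at ZT10 and 1370 to 1510 at ZT22, and its part in the young result was not tested. In old H2O hearts 4 atrial markers summed to 338 to 505 CPM at ZT10 and 117 to 310 at ZT22, and the macrophage markers to 126 to 144 and 151 to 172 CPM. In old NR hearts both lists differed the other way, with 110 to 128 and 160 to 222 CPM for the atrial and 129 to 133 and 106 to 120 CPM for the macrophage markers. Their part in the old results was not tested.

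Cebpb and Mthfd1l were higher at ZT10 in all 3 kinds of mice. Mthfd1l, which releases formate from mitochondria, stood at 12.6, 14.3 and 10.9 CPM at ZT10 and at 1.79, 3.15 and 3.14 CPM at ZT22 in young hearts (log2 fold change 2.19, SE 0.27, edgeR adjusted p = 6.72e-06). It stood at 7.85, 6.96 and 8.64 against 3.19, 1.29 and 3.79 CPM in old H2O hearts (1.48, SE 0.28, edgeR adjusted p = 0.00312). In old NR hearts the values were 10.7, 8.23 and 12.0 against 2.14, 2.91 and 3.09 CPM (1.87, SE 0.26, edgeR adjusted p = 8.74e-05). The times did not overlap in any of the 3.

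Cebpb, a C/EBP factor that also responds to hormones and inflammation, was at 61.6, 70.2 and 72.7 CPM at ZT10 and 28.5, 33.4 and 37.7 CPM at ZT22 in young hearts (log2 fold change 1.03, SE 0.14, edgeR adjusted p = 1.52e-05). In old H2O hearts it was at 63.0, 60.1 and 56.6 against 23.7, 30.1 and 31.1 CPM (1.05, SE 0.14, edgeR adjusted p = 5.95e-05), and in old NR hearts at 52.2, 61.2 and 53.4 against 44.0, 26.4 and 29.9 CPM (0.79, SE 0.13, edgeR adjusted p = 0.000824). Chac1 was called in young hearts (13.97, 20.7 and 18.2 against 4.93, 6.64 and 4.44 CPM, log2 fold change 1.71, SE 0.27, edgeR adjusted p = 0.000177) and in old H2O hearts (9.50, 14.9 and 19.8 against 3.73, 2.74 and 6.57 CPM, 1.69, SE 0.28, edgeR adjusted p = 0.00099). In old NR hearts Chac1 was at 7.50, 9.39 and 8.45 against 3.56, 5.03 and 6.18 CPM, without overlap but under the threshold (0.73, SE 0.29, edgeR adjusted p = 0.162). The difference in its time effect between old NR and old H2O hearts was -0.95 (SE 0.41, edgeR adjusted p = 0.414) and was not called.

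Ddit3 was higher at ZT10 in both groups of old hearts. Old NR hearts had 39.3, 40.4 and 38.9 CPM at ZT10 and 25.4, 26.2 and 27.1 CPM at ZT22 (log2 fold change 0.59, SE 0.11, edgeR adjusted p = 0.00259). Old H2O hearts had 37.8, 37.7 and 29.4 against 24.5, 26.7 and 24.9 CPM (0.46, SE 0.12, edgeR adjusted p = 0.0287). That second call was lost in 5 of the 6 fits that left out 1 of these hearts, all but the one without replicate 3 at ZT10, with edgeR adjusted p of 0.0554 to 0.135. In young hearts the times overlapped, at 27.3 to 38.6 and 28.7 to 36.4 CPM. The difference in the time effect of Ddit3 between old H2O and young hearts was not called. It was called in 3 of 12 fits that left out 1 heart.

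The other calls were in young hearts. Stc2 was higher at ZT10 (75.5, 70.8 and 66.9 against 39.9, 22.4 and 37.5 CPM, log2 fold change 1.116, SE 0.14, edgeR adjusted p = 5.95e-06). Slc38a2 was lower at ZT10 (334, 336 and 322 against 465, 559 and 468 CPM, log2 fold change -0.59, SE 0.081, edgeR adjusted p = 2.74e-05). Mthfd2 was lower at ZT10 (4.33, 5.14 and 3.56 against 7.18, 9.79 and 9.25 CPM, -1.01, SE 0.22, edgeR adjusted p = 0.00356), so the 2 mitochondrial folate genes Mthfd1l and Mthfd2 differed in opposite directions.

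Atf5 (89.3, 82.3 and 89.8 against 114, 108 and 115 CPM, log2 fold change -0.36, SE 0.079, edgeR adjusted p = 0.00286) and Atf4 (113, 95.2 and 98.0 against 115, 127 and 124 CPM, -0.26, SE 0.072, edgeR adjusted p = 0.0165) were lower at ZT10 in young hearts. Nup62, which overlaps Atf5 on the other strand, had a log2 fold change of -0.73 (edgeR adjusted p = 4.55e-06) there, and how far reads of the pair mix was not tested. Atf4 lost its call without young replicate 2 or 3 at ZT10 or young replicate 2 or 3 at ZT22 (edgeR adjusted p = 0.101, 0.0751, 0.0767 and 0.0515). The transporters Slc7a1 (-0.44, SE 0.12) and Slc7a5 (-0.51, SE 0.14) were called lower at edgeR adjusted p = 0.0182 each. Slc7a1 overlapped between the times (154, 187 and 219 against 209, 316 and 234 CPM) and was not called without young replicate 1 or 2 at ZT10 or replicate 2 at ZT22 (up to 0.183). Slc7a5 was not called without young replicate 1 or 3 at ZT10 or replicate 3 at ZT22 (up to 0.107). A fit of the 2 groups alone gave 0.058 and 0.0554 for these transporters.

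Ppp1r15a (46.8, 51.9 and 41.1 against 48.7, 98.7 and 77.7 CPM) and Gdf15 (1.97, 1.10 and 0.667 against 1.79, 4.98 and 3.51 CPM) were also called lower at ZT10 in young hearts, with overlap between the times (log2 fold change -0.70, SE 0.17, edgeR adjusted p = 0.0079, and -1.47, SE 0.47, edgeR adjusted p = 0.0396). Ppp1r15a was at -0.45 (edgeR adjusted p = 0.0908) without young replicate 2 at ZT22, the heart with its highest value. Gdf15, with few counts, lost its call in 4 of 6 such fits, without young replicate 2 or 3 at either time (edgeR adjusted p of 0.0818 to 0.23), and in a fit of the 2 groups alone (0.0521). None of the 7 amino acid synthesis genes tested was called between the times in any kind of mouse.

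**Figure D3:**
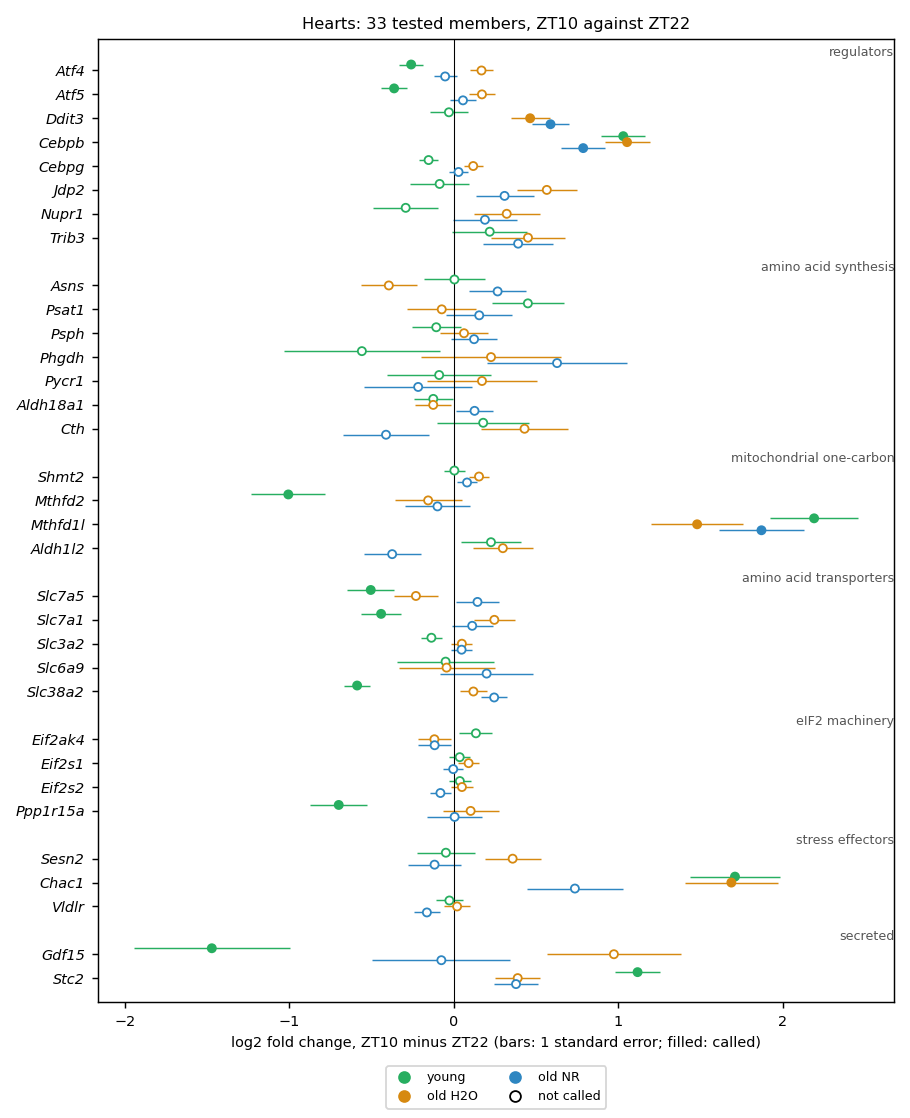
Log2 fold changes of the 33 tested members between ZT10 and ZT22 (horizontal axis, positive where higher at ZT10) in young, old H2O and old NR hearts, with bars of 1 standard error; filled points are called at an adjusted p under 0.05. Mthfd1l and Cebpb lie right of 0 in all 3, and the filled points left of 0 are from young hearts.

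Age was compared at each time. At ZT10, 4 of 33 members (12.1%, beside 5.87% of all genes) differed, 3 higher and 1 lower (2.95% and 2.92% of all genes), between old H2O and young hearts. Stc2 was lower in old hearts, at 48.3, 49.9 and 42.6 CPM against 66.9 to 75.5 (log2 fold change -0.60, SE 0.13, edgeR adjusted p = 0.00725), and this call held whichever heart was left out. Atf5 was higher (113, 104 and 108 against 82.3 to 89.8 CPM, 0.32, SE 0.079, edgeR adjusted p = 0.0184), as were Slc38a2 (412, 404 and 419 against 322 to 336 CPM, 0.31, SE 0.081, edgeR adjusted p = 0.0223) and Gdf15 (3.72, 2.89 and 5.97 against 0.667 to 1.97 CPM, 1.70, SE 0.46, edgeR adjusted p = 0.0319). These 4 genes did not overlap between the ages. They were looked at because they were called, and the share of all genes without overlap is not given here.

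The 3 increases were less firm. Slc38a2 lost its call whichever of the 6 hearts was left out (edgeR adjusted p of 0.0546 to 0.0969, with log2 fold changes of 0.30 to 0.33). Atf5 lost it without old H2O replicate 1 (0.0762) or 3 (0.0529) or young replicate 2 (0.0913). Gdf15 lost it without old H2O replicate 1 (0.06) or 3 (0.161) or young replicate 2 (0.111) or 3 (0.136). The summed level of 4 atrial markers was 338 to 505 CPM in old H2O hearts at ZT10 and 154 to 420 CPM in young hearts at ZT10, with overlap. Without overlap, red blood cell markers summed to 119 to 139 CPM in old and 73.9 to 109 CPM in young hearts, and fibroblast markers to 897 to 1040 and 1050 to 1130 CPM. The part of these lists in the values was not tested.

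At ZT22, 5 of 33 members (15.2%, beside 14.1% of all genes) were called, a share near the background, and all 5 were lower in old H2O than in young hearts (6.17% of all genes were). Atf4 was at 98.2, 91.3 and 93.1 CPM in old H2O and 115, 127 and 124 CPM in young hearts (log2 fold change -0.38, SE 0.072, edgeR adjusted p = 0.00123). Slc7a1 was at 148, 172 and 160 CPM against 209 to 316 (-0.66, SE 0.12, edgeR adjusted p = 0.00125), and Slc38a2 at 397, 378 and 363 CPM against 465 to 559 (-0.39, SE 0.080, edgeR adjusted p = 0.00234). Cebpg, the C/EBP partner of ATF4, differed by -0.25 (SE 0.057, edgeR adjusted p = 0.00614) and Ddit3 by -0.37 (SE 0.12, edgeR adjusted p = 0.0414). All 8 regulators had negative log2 fold changes here, with a median of -0.31, against -0.13 over the 33 members. The median and the signs over all genes are not given for this comparison, so these values only describe the listed genes.

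Ddit3 was not called at ZT22 with DESeq2 (adjusted p = 0.0721) or without any of the 3 old H2O hearts or young replicate 1 or 3 (edgeR adjusted p up to 0.186). A fit of the 2 groups alone called neither Ddit3 (0.0734) nor Cebpg (0.0545). Summed endothelial markers were 1160 to 1360 CPM in old H2O and 1370 to 1510 CPM in young hearts at ZT22, summed macrophage markers 151 to 172 and 116 to 132 CPM, and summed lymphocyte markers 36.7 to 45.2 and 29.4 to 36.6 CPM. The lymphocyte sum was mostly Ptprc, at means of 37.8 CPM in old H2O and 31.9 CPM in young hearts. Cd3e (0.867 against 0.308 CPM) and Ms4a1 (0.638 against 0.413 CPM) were also higher in old H2O hearts. Cd79a was lower (0.537 against 1.41 CPM). The part of these lists in these differences was not tested.

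Whether the time effect differed with age was tested as an interaction in the same fit, and 8 of 33 members (24.2%, beside 6.89% of all genes) were called, 7 positive and 1 negative (3.13% and 3.76% of all genes). It was positive, that is, toward ZT10 in old hearts, for Slc38a2 (0.71, SE 0.11, edgeR adjusted p = 0.00071), Atf5 (0.53, SE 0.11, edgeR adjusted p = 0.00526), Atf4 (0.43, SE 0.10, edgeR adjusted p = 0.0132), Gdf15, Slc7a1, Cebpg and Ppp1r15a, and negative for Stc2 (-0.73, SE 0.19, edgeR adjusted p = 0.0246). Slc38a2 shows the form of it: its ZT22 values exceeded its ZT10 values in every young heart, while in old H2O hearts they were 397, 378 and 363 at ZT22 and 412, 404 and 419 CPM at ZT10. Atf4, Atf5 and Slc38a2 kept the call whichever of the 12 hearts was left out. Cebpg was not called with DESeq2 (adjusted p = 0.142), with no filter on low counts (edgeR adjusted p = 0.0657) or in a fit of the 4 groups alone (0.0619), where Ppp1r15a was not called either (0.0624). Cebpb and Mthfd1l, with time effects of one direction in all groups, were not called for it. Neither were Ddit3, Mthfd2 and Slc7a5, whose time calls differed between young and old H2O hearts.

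**Figure D4:**
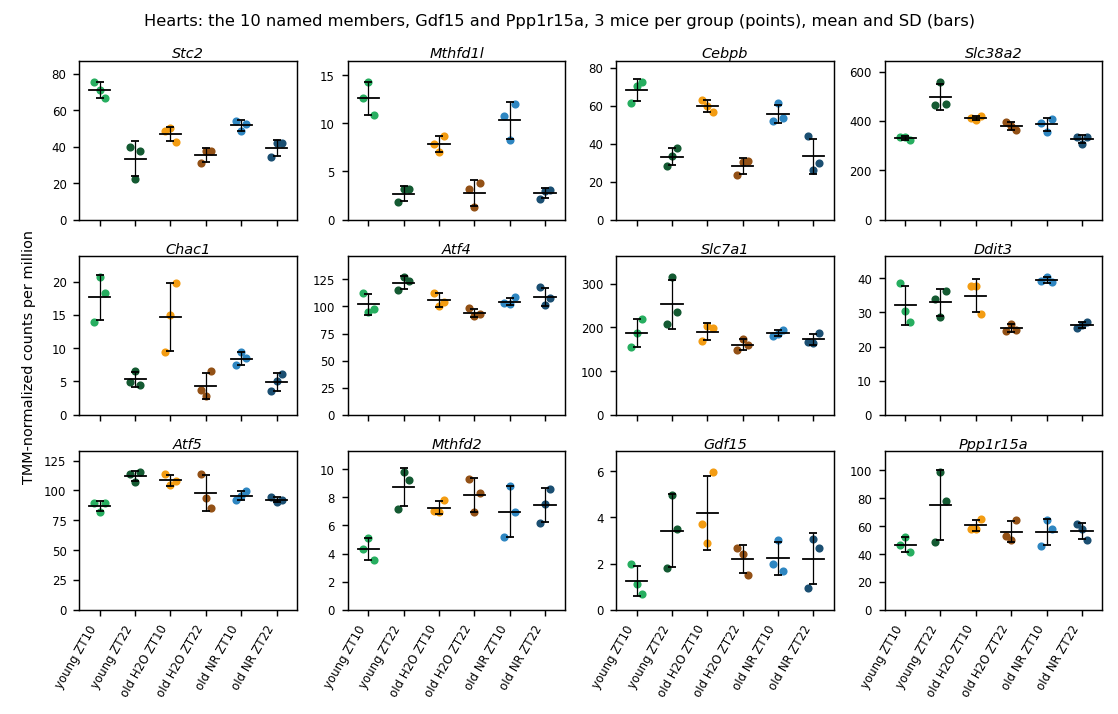
TMM-normalized CPM (vertical axes, each from 0) of the 10 named heart members, Gdf15 and Ppp1r15a in the 6 heart groups; points are the 3 mice of a group, horizontal lines the mean and whiskers the SD. Mthfd1l is at 6.96 to 14.3 at ZT10 and at 1.29 to 3.79 at ZT22 over all 3 kinds of mice, and young ZT22 hearts have the highest Slc38a2 values (465 to 559).

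No member was called for NR in old mice at either time. At ZT10 no member was called (0 of 33, beside 0.285% of all genes), 3 had an unadjusted p under 0.05 in edgeR (Chac1, Atf5 and Gdf15), and DESeq2 also called 0. The largest of these by p was Chac1, at 9.50 to 19.8 CPM in old H2O and 7.50 to 9.39 CPM in old NR hearts (log2 fold change -0.79, SE 0.25, edgeR adjusted p = 0.235). At ZT22 the count was again 0 of 33 (beside 0.35%), with 5 at an unadjusted p under 0.05 (Atf4, Asns, Slc38a2, Aldh18a1 and Aldh1l2) and 0 in DESeq2. Atf4 was at 118, 101.3 and 108 CPM in old NR hearts against 91.3 to 98.2 CPM (0.21, SE 0.071, edgeR adjusted p = 0.24), and Asns at 5.23, 6.09 and 6.60 against 8.25 to 9.02 CPM (-0.52, SE 0.17, edgeR adjusted p = 0.207). Neither gene overlapped between the groups, but neither was called, and the share of all genes without overlap is not given here. The NR by time interaction had 0 of 33 (beside 0.343%), with 5 at an unadjusted p under 0.05 and 0 in DESeq2. Summed atrial markers were 338 to 505 CPM in old H2O and 110 to 128 CPM in old NR hearts at ZT10. Fibroblast sums were lower in old NR hearts at both times and without overlap (691 to 805 against 897 to 1040 CPM at ZT10, 762 to 890 against 913 to 1090 CPM at ZT22), as were red blood cell sums at ZT10 (at most 112 against at least 119 CPM) and macrophage sums at ZT22 (106 to 120 against 151 to 172 CPM). The part of these lists in the values was not tested.

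The wider pathway list in hearts, again with all 42 genes tested, had 9 called between the times in young hearts (21.4%, beside 14.4% of all genes; 4 higher and 5 lower at ZT10, beside 6.8% and 7.57%) and 3 in old NR hearts (7.14%, near the 5.37% of all genes). In old H2O hearts none was called by edgeR (beside 4.2% of all genes), with 6 at an unadjusted p under 0.05. Atf3 led in young hearts (means of 13.2 CPM at ZT10 and 52.9 at ZT22, log2 fold change -2.05, SE 0.45, edgeR adjusted p = 0.00335), and Slc1a5, the glutamine transporter, was higher at ZT10 in young (0.44, SE 0.095, edgeR adjusted p = 0.00295) and old NR hearts (0.58, SE 0.096, edgeR adjusted p = 0.000572). For age the list had 4 calls at ZT10 (9.52%, beside 5.87%) and 6 at ZT22 (14.3%, near the 14.1% of all genes). Slc38a1, a glutamine transporter of the same family as Slc38a2, was lower in old H2O than in young hearts at ZT10 (means of 30.8 and 70.5 CPM, -1.196, SE 0.18, edgeR adjusted p = 0.000364) and at ZT22 (30.6 and 84.3 CPM, -1.46, SE 0.17, edgeR adjusted p = 1.2e-05). Atf3 was lower in old H2O hearts at ZT22 (11.7 against 52.9 CPM, -2.14, SE 0.44, edgeR adjusted p = 0.0026). None of the 42 was called for NR in old hearts at either time (4 and 6 at an unadjusted p under 0.05 in edgeR).

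Over all heart comparisons 14 of 33 members (42.4%) were called at least once, beside 28.5% of all genes, and over all HL-1 comparisons 14 of 36 (38.9%), beside 8.28% of all genes. These comparisons share libraries. The p-values measure the spread between 3 mice, or 3 wells of a single line, per group.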

How the data were processed

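Poly(A) RNA of 18 mouse hearts and 12 HL-1 cultures was sequenced. For the hearts the authors trimmed reads (Trimmomatic 0.39), aligned them to mm10 (STAR 2.7.10a), dropped duplicates (Picard 3.0.0) and any read that mapped to several places, to ribosomal or to mitochondrial RNA, and deposited gene counts (featureCounts 2.0.4); reads over several genes were left out. The table named as normalized held these counts (totals of 3922137 to 7562215, with no gaps among small whole numbers), and the one named as raw held rounded values that the authors had divided by a size factor, deposited as a score and used here for gene symbols only. The HL-1 tables that the authors deposited hold gene counts and FPKM values; HISAT2, HISAT and TopHat2 are named without roles, and the counter, its strand setting and its treatment of multi-mapping reads are not given in the sources used here. FPKM served only for levels per length. The tables had a median of 5534659 counts per heart and 25529294 per HL-1 library, so low genes such as Gdf15 in hearts carry a large standard error.

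Counts were fitted with edgeR 4.0.16 in R 4.3.3 (TMM, quasi-likelihood F-test, two-sided, 1 mean per group, all libraries of an experiment together). Hearts were tested at an average count over 5 and called at an adjusted p under 0.05, HL-1 genes were tested after filterByExpr and called under 0.01 and over 1.5-fold. Levels are TMM-normalized counts per 1000000 counts (CPM), and standard errors are the log2 fold change divided by the square root of F. Medians stand beside the median of all genes only for FK866 against untreated cells. Counts of signs and of unadjusted p are given for the listed genes alone. The fits were tested on simulated data. The members, their roles and the wider list were chosen with earlier results of these data known. Values in every library were given for Atf4 and for the 14 members with the largest change among those called in HL-1 cells (mean normalized count of at least 50). They were also given for the 10 with the smallest adjusted p in hearts. Gdf15, Ppp1r15a and the other called heart members were added after their values were seen. Of these, Slc7a5 and Cebpg are given in hearts by log2 fold change and adjusted p only. From the wider list, genes with a mean count of at least 50 that were called with FK866 or with Ex527 were named, up to 3 per direction by size of change. In hearts only some of its called genes were named, as examples. Those called with NR in HL-1 cells were not named. The alternatives were DESeq2 1.42.0, its size factors in edgeR, other filters, adjusted p alone, a fit of the compared groups alone, a replicate block and leaving out each library. Replicate numbers did not pair the samples: correlations of same-numbered deviations ran from -0.479 to 0.181.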

Additional observations from a re-analysis of the deposited data

Results flagged for a closer look

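For 8 members the age by time interaction was called: they had a time effect that differed between old H2O and young hearts (edgeR, adjusted p under 0.05; log2 scale, positive where the old hearts moved toward ZT10). The values were 0.71 for Slc38a2, 0.53 for Atf5, 0.43 for Atf4, 2.45 for Gdf15 (SE 0.62), 0.69 for Slc7a1 (SE 0.18), -0.73 for Stc2, 0.27 for Cebpg (SE 0.081) and 0.80 for Ppp1r15a (SE 0.24). Behind them, ZT10 minus ZT22 was -0.59 (young) and 0.12 (old H2O) for Slc38a2, -0.36 and 0.17 for Atf5, -0.26 and 0.17 for Atf4, and 1.116 and 0.39 for Stc2. For Gdf15 they were -1.47 and 0.97, with 0.667 to 5.97 CPM in these hearts, so the interaction of the largest size rests on few counts.

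The call of Cebpg was lost with DESeq2 (adjusted p = 0.142), with no filter on low counts (edgeR adjusted p = 0.0657) and in a fit of the 4 groups alone (0.0619), which also ended that of Ppp1r15a (0.0624). Leaving out 1 of the 12 hearts ended the call of Cebpg in 9 fits, of Ppp1r15a in 10, of Gdf15 in 5 (without old H2O replicate 3 at ZT10 or at ZT22, or young replicate 2 or 3 at ZT10 or young replicate 2 at ZT22, edgeR adjusted p up to 0.0768), and of Slc7a1 (up to 0.0615) and Stc2 (up to 0.0672) in 4 each. The value for Ppp1r15a was 0.55 (edgeR adjusted p = 0.155) without young replicate 2 at ZT22. The groups hold 3 libraries each, too few for the check on single libraries that stand apart.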

How the results depend on the processing

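Counts of called members by comparison kept within 1.5 times of those reported under DESeq2, under its size factors in edgeR, under both other filters and with the replicate number as a block, for all 15 comparisons. With the block the count was 6 in place of 5 for old H2O against young hearts at ZT22, where Atf5 was added (edgeR adjusted p = 0.0458), and the block changed no other call. Same-numbered libraries did not correlate above 0.1 in every pair, so the block is no paired design. With adjusted p alone the HL-1 counts were 14 for FK866 against untreated, 20 for NR added to FK866, 6 for FK866 and NR against untreated, 19 for Ex527 added, 4 for the Ex527 group against FK866 and 11 against untreated. A fit of only the groups compared gave 5 for the times in old NR hearts (with Aldh1l2 and Stc2 added), 7 for age at ZT10 (with Mthfd1l, Eif2ak4 and Ppp1r15a added) and 3 for age at ZT22 (without Ddit3 and Cebpg), which has fewer libraries behind its spread. That fit also added Jdp2 and Stc2 between the times in old H2O hearts (edgeR adjusted p = 0.049 and 0.047). It dropped Slc7a1, Slc7a5 and Gdf15 in young hearts. For the Ex527 group against FK866 or untreated, and for fits of the compared groups, no share of all genes is given. A rise in those counts is therefore no result about the members.

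Leaving out each library in turn gave these ranges of calls in hearts: 8 to 12 between the times in young hearts, 3 to 4 in old H2O and 3 to 4 in old NR hearts, 1 to 3 for age at ZT10, 4 to 7 for age at ZT22, 4 to 8 for the age by time interaction and 0 for each NR comparison. In HL-1 cells they were 4 to 6 for FK866, 6 to 13 for NR added, 0 to 1 for FK866 and NR against untreated, 4 to 7 for Ex527 added, 1 to 2 for the Ex527 group against FK866 and 1 to 4 against untreated. Of 36 heart calls 21 held in every such fit, and of 24 HL-1 calls 12 did. No called value changed sign under any alternative run. The share of all genes is not set beside these ranges, which describe only how far the member calls varied. The cause of these changes was not tested. Mthfd2 passed 1.5-fold for Ex527 with an average count over 5 or with no filter (0.59), and Slc38a2 was called between the times in old NR hearts by DESeq2 (adjusted p = 0.0382).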
